A study of Mus musculus with 15 samples.

Results

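The genes described here encode proteins of synaptic and secretory vesicles and of the machinery that fuses them with the plasma membrane. They are 44 genes chosen by symbol, and all 44 were found among the 55573 genes of the count table. The question was how their mRNA levels compared in the trigeminal ganglion (TG), which holds the cell bodies of the sensory neurons that innervate the cornea, after treatment of an injured eye with a resolvin or with its stereoisomer. All 15 TG came from 10-week-old male CD1 mice, with no uninjured animal among them, in which the epithelium and anterior stroma of the right central cornea had been removed within a 2-mm trephine mark. The eye then received vehicle, the Resolvin D6 standard (RvD6) or a stereoisomer of it recovered from tears and corneas (RvD6si), 3 times a day, and the right TG was taken on day 12. Each group had 5 TG, numbered 1 to 5 for vehicle, 6 to 10 for RvD6 and 11 to 15 for RvD6si. The concentration of either lipid is not given in the sources used here, so the schedules match but equal doses cannot be assumed.

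In textbook terms, a vesicle is filled with transmitter by a transporter in its membrane, is tethered at the active zone by Rab3 and large scaffold proteins, and is primed for release. A SNARE protein of the vesicle (a Vamp) then zippers with SNAREs of the target membrane (a syntaxin and a Snap) while synaptotagmins sense calcium and complexins hold or release the assembled complex. After fusion, the ATPase Nsf and its adaptors Napa and Napb take the SNAREs apart, and dynamin and synaptojanin serve the retrieval of membrane. In the TG these mRNAs lie in the cell bodies of neurons whose release sites are in the cornea, other tissues of the head and the brainstem, and several members, such as Snap23, Vamp3, Stx7, Stx12 and Stx4a, act in secretory or endosomal traffic of many cell types.

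Total counts ranged from 4125962 to 9903396 per library, with a median of 7756538, and vehicle libraries were on average deeper than RvD6si libraries (exact permutation test of the means, two-sided, p = 0.0476 with 5 samples each). The 16 sensory neuron markers examined were read in every library, and their summed normalised count (the count divided by the size factor of the library) ran from 104000 to 121100 in vehicle, from 59850 to 112400 in RvD6 and from 97240 to 122800 in RvD6si. Of the markers of brain neurons, Gad2 had no read in any library and Neurod6 had reads in 1, while Gad1 reached 26.9 normalised counts and was at 0 in 1 vehicle, 3 RvD6 and 3 RvD6si libraries. Their list also held markers used for glia of the central nervous system, Gfap among them, and the cells they came from here were not tested. The summed count of this list was 602 to 918 in vehicle, 622 to 1430 in RvD6 and 739 to 1335 in RvD6si. Gfap was 118 to 269 in vehicle, 174 to 769 in RvD6 and 284 to 442 in RvD6si. The other markers of the list overlapped between RvD6si and vehicle. Some libraries held RNA of other tissues. The summed count of 8 skeletal muscle markers was 126 to 1120 in vehicle and 81.3 to 232 in RvD6si but 646 to 18470 in RvD6, with the highest values in RvD6 replicates 8 and 9, and markers of bone marrow granulocytes and red cells were also higher in RvD6 (4977 to 16340 against 779 to 4172 in vehicle for granulocytes, and 36380 to 66270 against 14670 to 31350 for red cells) and in RvD6si replicate 15 (13940 and 74110). The summed count of 6 pituitary endocrine markers was 28420 in vehicle replicate 3 and 17550 in RvD6 replicate 10, and from 1694 to 7215 in the other libraries. The lowest of these sums were mostly Chga, which was read in every library (1626 to 1929 in vehicle, 921 to 1845 in RvD6 and 1344 to 2087 in RvD6si). In bulk tissue, fewer cells of a type and less RNA per cell cannot be told apart.

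The 4 promoter stretches below belong to the genes on which the comparison of RvD6si with vehicle turned, 3 with higher means and 1 with a lower mean. They are RefSeq sequences of GRCm38.p6 from the most upstream listed start of each gene, printed 5′ to 3′ on the strand of the gene and without any base of an annotated exon. Sv2b lies at chr7:75114894-75309262 on the minus strand, and its stretch is chr7:75309263-75309512, with capitals marking GGACAG, letters of the right part of the RE1 element that the neuronal repressor Rest binds. The Rab3a stretch is chr8:70754453-70754678 on the plus strand, the Napb stretch chr2:148732468-148732670 on the minus strand and the Napa stretch chr7:16098330-16098457 on the plus strand.
Sv2b: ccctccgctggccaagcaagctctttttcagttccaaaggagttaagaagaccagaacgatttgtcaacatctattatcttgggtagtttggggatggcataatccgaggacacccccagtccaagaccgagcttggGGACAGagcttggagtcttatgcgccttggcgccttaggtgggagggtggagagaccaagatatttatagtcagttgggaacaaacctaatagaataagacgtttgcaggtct
Rab3a: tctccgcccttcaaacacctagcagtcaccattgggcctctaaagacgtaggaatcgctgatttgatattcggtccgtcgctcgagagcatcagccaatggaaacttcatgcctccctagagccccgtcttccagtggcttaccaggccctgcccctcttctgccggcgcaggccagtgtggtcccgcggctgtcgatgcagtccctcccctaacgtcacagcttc
Napb: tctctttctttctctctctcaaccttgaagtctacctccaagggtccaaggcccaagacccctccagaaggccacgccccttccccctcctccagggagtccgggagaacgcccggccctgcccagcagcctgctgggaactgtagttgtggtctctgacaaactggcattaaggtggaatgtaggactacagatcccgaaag
Napa: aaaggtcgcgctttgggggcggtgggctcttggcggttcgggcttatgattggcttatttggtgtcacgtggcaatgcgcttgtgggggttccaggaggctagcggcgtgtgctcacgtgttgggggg

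Windows of 300 bases around a start were given for 38 of the 44 genes and were searched on both strands for 4 motifs. GGACAG was found for 9 of the 38 genes (23.7%), beside 24.7% of all 27025 genes with a window. CGCNNGCG, a motif of CpG-rich promoters, was found for 18 (47.4%), beside 16.4% of all genes. TTCAGCACC, the left part of the RE1 element, was found for Syn1 and Unc13a (5.26%, beside 0.433% of all genes), and TGACGTCA, the cyclic AMP response element, for Napa and Syn1 (5.26%, beside 2.03%). Apart from the GGACAG of Sv2b, the matches of the 4 genes printed above (CGCNNGCG for Sv2b and Napb, TGACGTCA for Napa) lie outside the printed stretches. None of the 4 motifs contains another. These are matches of letters only.

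The levels of the 44 genes ran from 1829 to 0.706 when the mean normalised count over the 15 TG was divided by the exonic length of the gene in kilobases. Syt11, a synaptotagmin that does not bind calcium, was highest at 1829 per kb, and Snap25, the neuronal Snap of the target membrane, followed at 1751. Napa, Cplx1 and Snap47 came next at 1225, 741 and 688 per kb. At the other end lay Unc13a, a priming factor of brain synapses, at 6.51 per kb, and the vesicular glutamate transporters Slc17a7 at 3.96 and Slc17a8 at 0.706. These are means of 15 libraries and were compared only per length. The GC content of the genes ran from 40.7% (Syt4) to 58.8% (Bsn), and levels were not corrected for it.

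**Figure D1:**
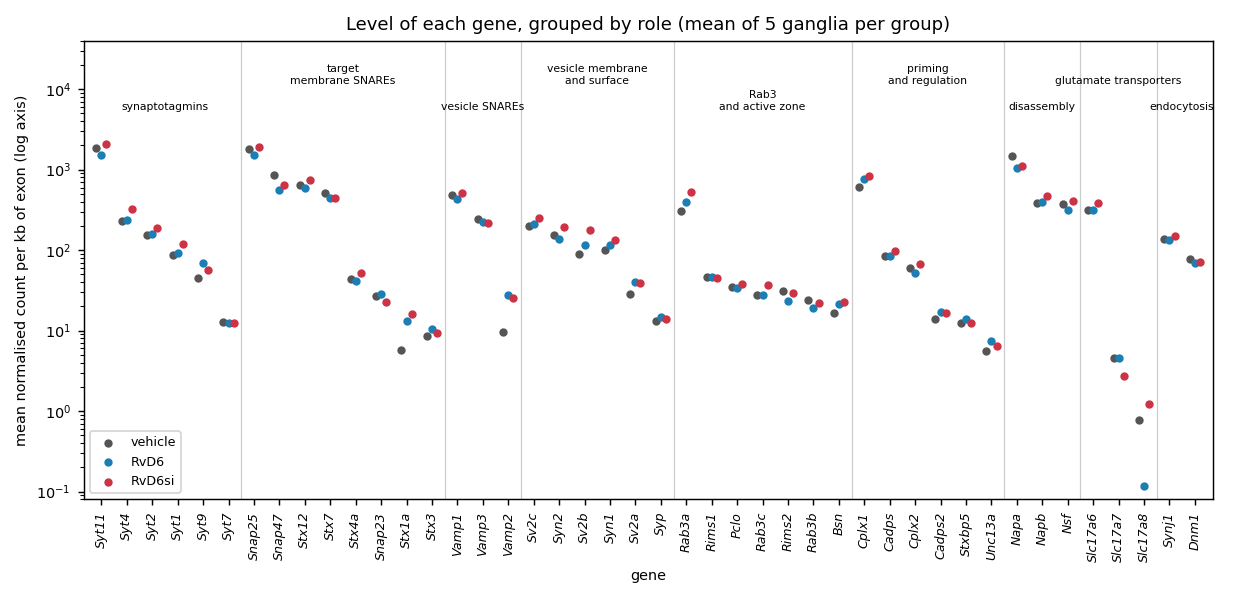
Mean normalised count per kilobase of exon (log axis) of each of the 44 genes, 1 point per group (mean of 5 TG), with the genes sorted within their roles. Syt11, Snap25 and Napa are the 3 highest, and the transporters run from Slc17a6 at 338 per kb to Slc17a8 at 0.706.

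Within each role 1 or a few paralogs carried most of the signal. Among the vesicle SNAREs, Vamp1 stood at 476 per kb, above Vamp3 at 229.9 and Vamp2, the main Vamp of forebrain synapses, at 21.1. Among the target SNAREs, Snap25 was far above Snap23 (26.3 per kb), its counterpart outside neurons, and the endosomal syntaxins Stx12 (662) and Stx7 (468) were above Stx4a (45.6), Stx1a (11.6) and Stx3 (9.45), which act at the plasma membrane. The synaptotagmins ran from Syt11 through Syt4 (263 per kb), Syt2 (168), Syt1 (99.0) and Syt9 (57.3) to Syt7 (12.6).

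Of the vesicle membrane proteins, Sv2c was highest at 222 per kb and Syp, which encodes synaptophysin, lowest at 14.1, with the synapsins Syn2 and Syn1 at 162 and 117. Rab3a (410.1 per kb) was the main Rab3, well above Rab3c (30.9) and Rab3b (21.7), and the active zone scaffolds Rims1, Pclo, Rims2 and Bsn lay between 20.3 and 46.0. Cplx1 exceeded Cplx2 (60.3 per kb), and Cadps (88.5) exceeded Cadps2 (15.9). Of the disassembly proteins, Napa was followed by Napb at 415.0 and Nsf at 365 per kb, and Synj1 and Dnm1 stood at 139.5 and 73.0. Reads shared with another gene were not counted, and 14 of the 44 genes share exonic bases with one, up to 16.8% of the length of Syp, 14.5% of Syt4 and 11.6% of Snap47, so that their levels may be too low.

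Slc17a6, which encodes VGLUT2, had the highest level of the vesicular glutamate transporters in the TG. Its normalised counts were 1634, 1989, 1761, 1694 and 1424 in vehicle, 1781, 2199, 1762, 1450 and 1407 in RvD6, and 2613, 2070, 2061, 1977 and 1534 in RvD6si. The groups overlapped, and RvD6si stood above vehicle by 0.27 on the log2 scale (95% interval -0.05 to 0.58, adjusted p = 0.405 with the quasi-likelihood test of edgeR). Slc17a7 (VGLUT1) was read in every library, with 2 to 60 reads. Slc17a8 (VGLUT3) had at most 24 reads in a library, with no read in 9 of the 15 libraries. A count of 0 allows up to 3 reads at these depths. Slc17a8 was the 1 gene that failed the filter on low counts, so that 43 genes were tested.

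The main test compared each pair of groups with the quasi-likelihood test of edgeR fitted to all 16567 genes that passed the filter, with Benjamini-Hochberg adjustment over all of them and a threshold of 0.05 for a call. For RvD6si and vehicle, 111 genes of the whole table were called, 0.67%, and none of the 43 vesicle and SNARE genes was. At an unadjusted p below 0.05, 7 of the 43 were higher in RvD6si, where 8.69% of all genes were, and 2 were lower, where 7.3% were. DESeq2, the tool of the study, called 3 of the 41 genes it tested (Sv2b, Rab3a and Napb), beside 8.13% of all the genes it tested. The median log2 difference of the 43 genes was 0.18, beside 0.02 over all genes tested, and 31 of the 43 (72.1%) lay above 0, beside 51.2% of all genes. With the trend of each library on gene length removed, that median was 0.06. Of the 16 sensory neuron markers 1 was higher and 1 lower at an unadjusted p below 0.05 (median -0.01), and of 8 markers of myelinating Schwann cells 3 were higher and 1 lower (median 0.38). The summed count of the Schwann markers was 127300 ± 23960 (SD, n = 5) in vehicle and 124300 ± 26690 in RvD6si. Over all marker lists examined, the median ran from -1.31 (skeletal muscle) to 1.08 (bone marrow granulocytes). The summed granulocyte count in RvD6si was 13940 in replicate 15 and 384 to 897 in the other replicates, against 779 to 4172 in vehicle. The part of any of these cell types in the values was not tested.

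Sv2b, a glycoprotein of the vesicle membrane that takes part in calcium-dependent release, had the smallest p of the 43 genes. Its normalised counts were 929, 954, 618, 723 and 513 in vehicle, 895, 1286, 747, 1068 and 794 in RvD6, and 1888, 2340, 892, 1404 and 1005 in RvD6si. All RvD6si samples but replicate 13 were above every vehicle sample, and the RvD6si values spread more widely than those of the other groups. The mean was 1506 ± 608 (SD, n = 5) in RvD6si and 747 ± 192 in vehicle, a log2 difference of 1.00 (SE 0.25, 95% interval 0.48 to 1.52, edgeR adjusted p = 0.0637). DESeq2 gave an adjusted p of 0.0040, and over the 24 alternatives tried the adjusted p ran from 0.0040 to 0.179. Without RvD6si replicate 13 the edgeR value was 0.0473, the 1 of the 15 fits with 1 library left out that was below 0.05.

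Rab3a, a small GTPase that attaches vesicles to the active zone, differed in the same direction. The counts were 805, 725, 657, 756 and 491 in vehicle, 818, 854, 911, 1267 and 621 in RvD6, and 1551, 1130, 980, 1018 and 1109 in RvD6si. All 5 RvD6si samples were above all vehicle samples, a pattern seen for 2 of the 43 genes (Rab3a and Napb) and for 2.48% of all genes. The means were 1158 ± 228 and 687 ± 122, a log2 difference of 0.75 (SE 0.19, 95% interval 0.36 to 1.14, edgeR adjusted p = 0.0638, DESeq2 adjusted p = 0.0047). RvD6 replicate 9 is in neither group compared and enters through the shared filter, normalization and estimate of the spread. Without it the edgeR value was 0.0371, the 1 of the 15 fits with 1 library left out that was below 0.05. Over all alternatives the adjusted p ran from 0.0047 to 0.186.

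Napb, the brain form of the adaptor that brings Nsf to spent SNARE complexes, had values of 2833, 2516, 2715, 2391 and 2950 in vehicle, 2712, 3090, 2689, 2917 and 2450 in RvD6, and 3901, 3011, 3213, 3351 and 3153 in RvD6si. The groups did not overlap between RvD6si and vehicle, and the difference was small, 0.31 on the log2 scale (SE 0.11, edgeR adjusted p = 0.174, DESeq2 adjusted p = 0.0404). With the trend on gene length removed it was 0.16.

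Its relative Napa, the widely expressed adaptor, lay in the other direction. The counts were 5189, 5332, 6277, 5923 and 5626 in vehicle, 5181, 3632, 5262, 2687 and 3361 in RvD6, and 4049, 3129, 5147, 4901 and 3883 in RvD6si. All RvD6si samples were below all vehicle samples, which was so for 1 of the 43 genes and for 2.4% of all genes. The log2 difference was -0.43 (SE 0.18, 95% interval -0.80 to -0.06, edgeR adjusted p = 0.237).

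Snap47, a Snap that lacks the membrane anchor of Snap25, was the other gene that was lower at an unadjusted p below 0.05. Its counts were 1878, 1972, 2702, 2039 and 2717 in vehicle, 1699, 1372, 1879, 1278 and 1242 in RvD6, and 1771, 1002, 2183, 1912 and 1718 in RvD6si. RvD6si and vehicle overlapped, and the log2 difference was -0.40 (SE 0.19, edgeR adjusted p = 0.309).

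Syt4, a synaptotagmin of dense-core vesicles, had 922, 1085, 727, 770 and 986 in vehicle and 1258, 1540, 854, 1273 and 1406 in RvD6si, with 4 of the 5 RvD6si samples above every vehicle sample. The log2 difference was 0.49 (SE 0.18, edgeR adjusted p = 0.194, DESeq2 adjusted p = 0.0860). Syt1, the fast calcium sensor of release, was 0.45 higher (SE 0.21, edgeR adjusted p = 0.303), with overlapping groups of 527 to 952 in vehicle and 751 to 1284 in RvD6si.

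The largest differences were those of the low genes Stx1a and Vamp2, the classical partners of Snap25 at brain synapses. Stx1a had 12.3, 21.4, 20.1, 17.7 and 4.11 normalised counts in vehicle and 70.0, 6.39, 41.1, 56.9 and 37.4 in RvD6si, so that 4 RvD6si samples were above vehicle and replicate 12 was within it. Its log2 difference was 1.48 (SE 0.61, 95% interval 0.20 to 2.75, edgeR adjusted p = 0.236). Vamp2 had 69.9, 50.7, 24.1, 21.7 and 18.9 in vehicle and 121, 189, 29.2, 30 and 117 in RvD6si, where replicates 13 and 14 were at the level of vehicle. The log2 difference was 1.37 (SE 0.63, 95% interval 0.06 to 2.69, edgeR adjusted p = 0.293).

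**Figure D2:**
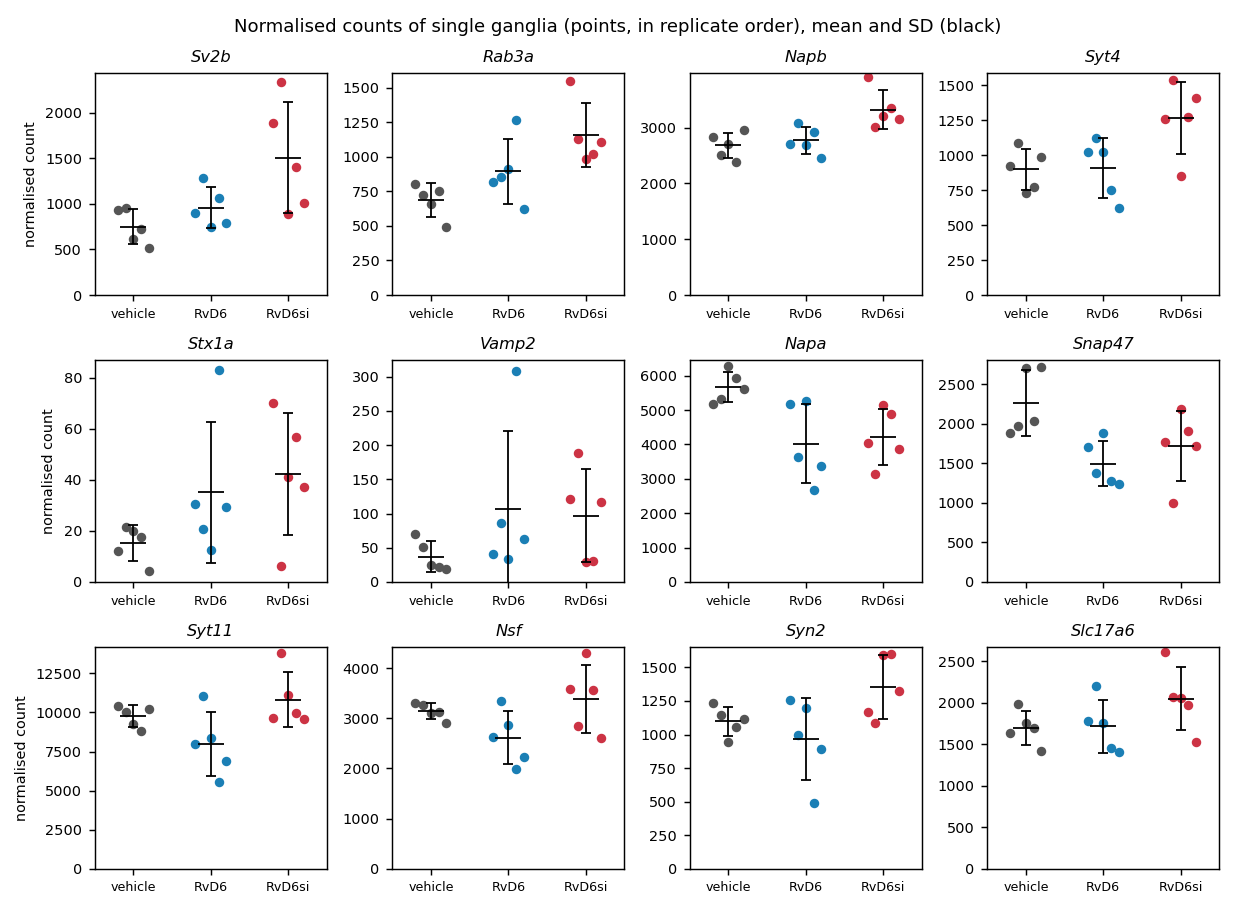
Normalised counts of 12 genes in each TG (points, in the order of the replicate numbers; linear axes from 0), with the mean and SD of the 5 TG per group in black (the SD bar of Vamp2 in RvD6 is cut at 0). For Rab3a and Napb the 5 RvD6si points lie above, and for Napa below, the 5 vehicle points; Stx1a and Vamp2 hold 1 high RvD6 point, replicate 9, at 83.1 and 309.

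Read by role, the 6 vesicle membrane and surface genes all had a higher mean in RvD6si than in vehicle, with a median log2 difference of 0.38, and 1 of them (Sv2b) had an unadjusted p below 0.05. Of the 6 synaptotagmins 5 had a higher mean (median 0.29), 2 of them at that p. With the trend on gene length removed, Syp stood at -0.03 and the other vesicle membrane and surface genes from 0.17 (Syn2) to 0.85 (Sv2b). The synaptotagmins then ran from -0.19 (Syt7) to 0.43 (Syt4). The 8 target membrane SNAREs were spread around 0 (median 0.09, range -0.40 to 1.48), as were the 7 Rab3 and active zone genes (median 0.13), of which Rab3a was the 1 with a small p. Snap25, which had the most reads per kb of the target SNAREs, differed by 0.06 on the log2 scale (95% interval -0.28 to 0.40), and Vamp1 by 0.06 (95% interval -0.29 to 0.41). The intervals reach to about 0.4 above 0 and 0.3 below it.

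For RvD6 and vehicle, no gene of the whole table was called by edgeR (0.0%), and none of the 43 genes was. At an unadjusted p below 0.05 edgeR had 2256 genes of the table, 13.6%, and DESeq2 called 369 at an adjusted p below 0.05, 1.92% of the genes it tested, none of them among the vesicle and SNARE genes. None of the 43 separated the samples of the groups, which 2.25% of all genes did upwards and 1.47% downwards. Of the 43, 1 gene was higher at an unadjusted p below 0.05, beside 7.63% of all genes, and 2 were lower, beside 5.99%. With the trend on gene length removed this count of 3 became 9, 3 higher and 6 lower, where RvD6si against vehicle had 7, 4 higher and 3 lower. The shares of all genes at that p were not counted with the trend removed, so these counts cannot be set against the whole table. The median log2 difference of the 43 genes was -0.01, beside 0.02 over all genes, and 21 of them (48.8%) lay above 0, beside 52.2% of all genes.

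The 2 lower genes, Snap47 and Napa, also had lower means with RvD6si. Both comparisons use the same vehicle samples, so the values are given side by side only. Snap47 lay below vehicle by 0.61 on the log2 scale (SE 0.19, 95% interval -1.01 to -0.21, edgeR adjusted p = 0.191) with 4 of 5 RvD6 samples below all vehicle samples, and Napa by 0.51 (SE 0.18, edgeR adjusted p = 0.223), also with 4 of 5. The higher gene was Vamp2, at 41.4, 85.6, 33.6, 309 and 63.4 normalised counts in RvD6 and a log2 difference of 1.5 (SE 0.63, edgeR adjusted p = 0.311). Replicate 9 decided it. Without that library the difference was 0.58 and the edgeR adjusted p 0.772. Stx1a likewise stood at 30.5, 20.7, 12.6, 83.1 and 29.2 in RvD6, with a log2 difference of 1.2 (edgeR adjusted p = 0.399) that was 0.61 without replicate 9. Replicate 9 also had the most muscle marker reads of all libraries and the fewest sensory neuron marker reads, and the part of either in these values was not tested.

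Syt11 was lower in 4 of 5 RvD6 samples than in any vehicle sample, at 8014, 11070, 8346, 5552 and 6903 against 10440, 10050, 9269, 8795 and 10250. The log2 difference was -0.31 (SE 0.15, edgeR adjusted p = 0.385). Nsf showed the same arrangement (2618, 3340, 2866, 1993 and 2229 against 3301, 3257, 3113, 3130 and 2905; log2 difference -0.28, edgeR adjusted p = 0.430), with replicate 7 high in both. Rab3a was 0.37 higher in RvD6 than in vehicle (SE 0.19, edgeR adjusted p = 0.403). In the same comparison 8 of the 16 sensory neuron markers were lower at an unadjusted p below 0.05 (median -0.35), and all 8 muscle, 8 granulocyte and 5 red cell markers were higher at that p (medians 4.26, 2.58 and 1.54). The summed count of 8 satellite glia markers was also lower, at 50210 to 61590 in RvD6 and 62820 to 76770 in vehicle. The log2 differences of these glial markers ran from -0.38 to 0.33 (median -0.13). With RvD6 replicates 8 and 9, the libraries with the most muscle reads, left out together, the median difference of the 43 genes was 0.05. The part of the other mixture and of the glia in these values was not tested.

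The direct comparison of the stereoisomers had 39 called genes in the whole table, 0.235%, and none among the 43. At an unadjusted p below 0.05, 6 of the 43 were higher in RvD6si than in RvD6, where 4.18% of all genes were, and 0 were lower, where 4.64% were. DESeq2 called 0 of the 43, beside 0.936% of the genes it tested. The median log2 difference of the 43 genes was 0.21, beside -0.00 over all genes, and 31 (72.1%) lay above 0, beside 49.5%. No gene of the 43 separated the samples of the groups, which 0.652% of all genes did upwards and 1.09% downwards. In this comparison 2 of the 16 sensory neuron markers were higher at an unadjusted p below 0.05, with a median over the 16 of 0.33, and all 8 muscle and 5 red cell markers were lower at that p. Their part in the values was not tested.

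The 6 genes were Syt11 (log2 difference 0.45, SE 0.15, 95% interval 0.13 to 0.77, edgeR adjusted p = 0.338), Sv2b (0.66, SE 0.25, edgeR adjusted p = 0.406), Syt4 (0.49, SE 0.18, edgeR adjusted p = 0.418), Nsf (0.38, SE 0.15, edgeR adjusted p = 0.450), Napb (0.27, SE 0.11, edgeR adjusted p = 0.459) and Syn2 (0.49, SE 0.20, edgeR adjusted p = 0.468). For each of them some samples of the groups overlapped. Syt4 and Napb came nearest to separation, with 4 of 5 RvD6si samples above all RvD6 samples. Syn2, a synapsin that ties vesicles into the reserve pool, had 1259, 993, 1195, 488 and 895 in RvD6 and 1167, 1084, 1592, 1597 and 1322 in RvD6si, and its lowest value was again that of RvD6 replicate 9.

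The other members had log2 differences from -0.74 (Slc17a7) to 0.44 (Rab3c) between the lipids, with intervals that all included 0. Rab3a stood at 0.38 (-0.01 to 0.77) and Snap25 at 0.33 (-0.01 to 0.67). For Napa the difference was 0.08 (95% interval -0.29 to 0.45), for Snap47 0.21 (-0.19 to 0.61), for Stx7, an endosomal syntaxin, 0.02 (-0.29 to 0.32) and for Rims1, an active zone scaffold, -0.02 (-0.44 to 0.39). For Vamp2 and Stx1a the intervals were -1.40 to 1.16 and -0.96 to 1.51. Leaving out RvD6 replicate 7 brought the count at an unadjusted p below 0.05 from 6 to 12, and leaving out RvD6 replicate 10 brought it to 3. The shares of all genes in those fits were not counted.

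**Figure D3:**
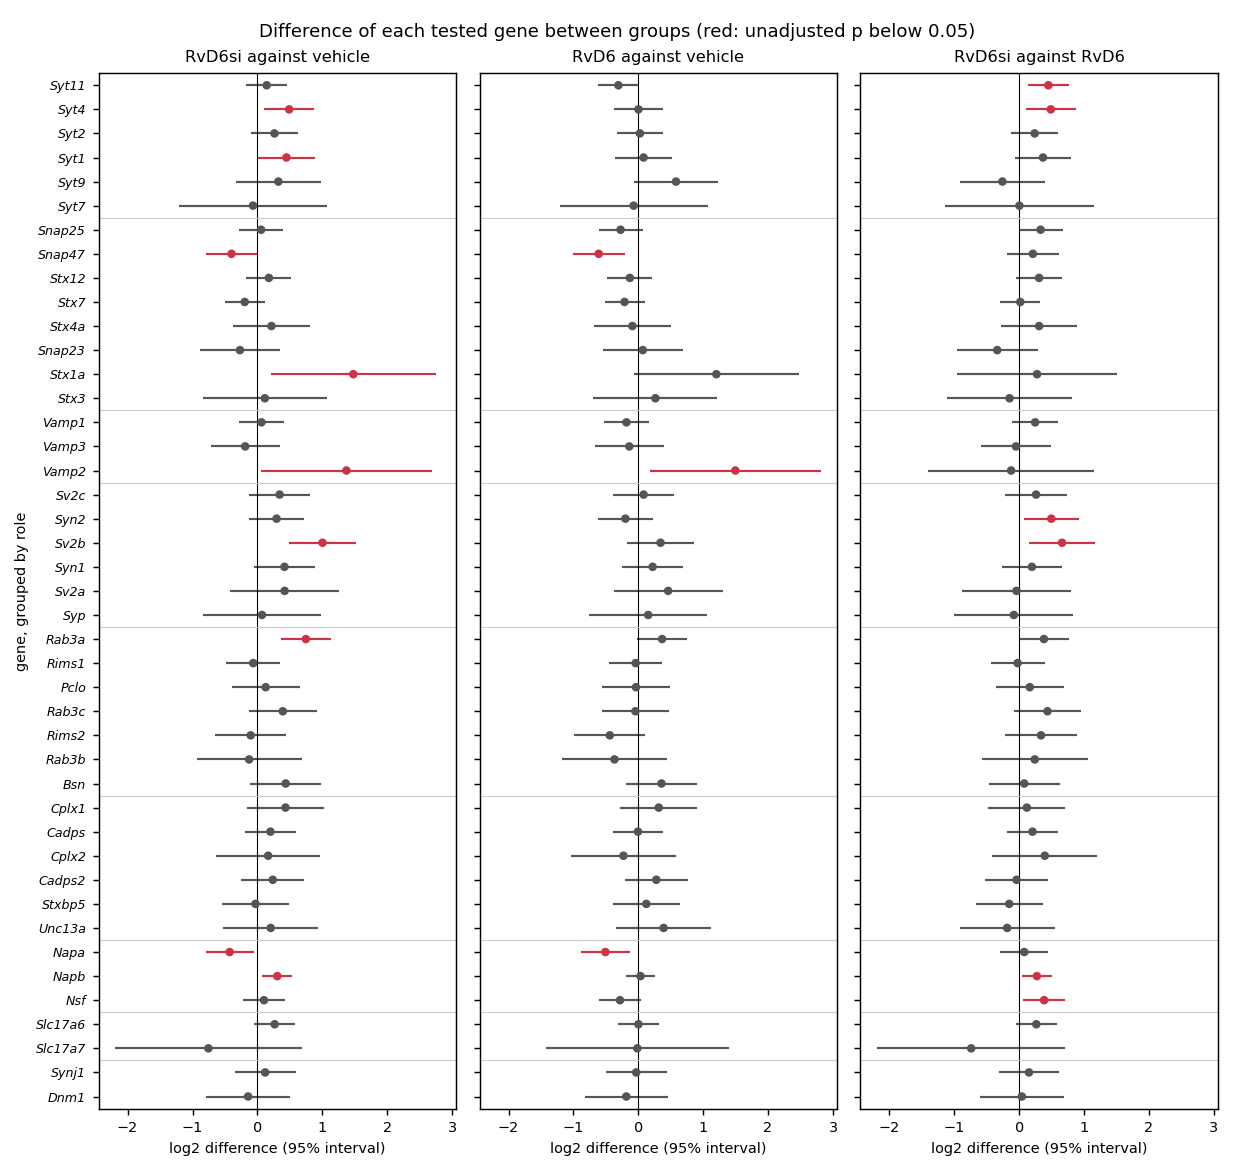
Log2 difference of each of the 43 tested genes between 2 groups (points) with its 95% interval (lines), in 3 panels of the same scale, grouped by role; red marks an unadjusted p below 0.05. The 9 red genes in the first panel, 3 in the second and 6 in the third are those counted in the text, and no adjusted p was below 0.05.

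Within a group the genes did not vary independently of the library. Highest and lowest values were counted for these 43 genes only, so the pattern is not shown to be particular to them. In RvD6 replicate 7, 24 of the 43 genes had the highest value of the group, among them Syt1, Syt2, Sv2c, Cplx2, Cadps, Bsn and Pclo, and in RvD6si replicate 12 this was so for 21, including Syt1, Sv2b, Sv2c, Cplx1, Cplx2 and Cadps. In that same RvD6si library 10 genes had the lowest value of the group, among them Snap25, Vamp1, Stx7, Stx12, Snap47 and Napa. Vehicle replicate 1 showed the same division, with 17 highest (Syt1, Sv2c, Cplx1 and Cadps among them) and 8 lowest (Snap25, Vamp1, Stx7, Stx12, Snap47 and Napa among them).

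Sv2c and Snap25 show the size of this division. Sv2c had 2539, 2455, 1577, 1604 and 1495 in vehicle, 1784, 3336, 1705, 1609 and 1921 in RvD6, and 2647, 3465, 1643, 2080 and 2485 in RvD6si. Snap25 had 10170, 10810, 13270, 13650 and 14080 in vehicle, 11750, 10030, 11940, 9652 and 8365 in RvD6, and 15910, 8999, 15210, 14410 and 10090 in RvD6si. Vehicle replicates 1 and 2 had the 2 highest Sv2c and the 2 lowest Snap25 values of their group, and RvD6si replicate 12 the highest and the lowest, while in RvD6 replicate 7, the highest for Sv2c, Snap25 was at the median of the group. For both genes the range within each group was larger than any difference between group means.

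**Figure D4:**
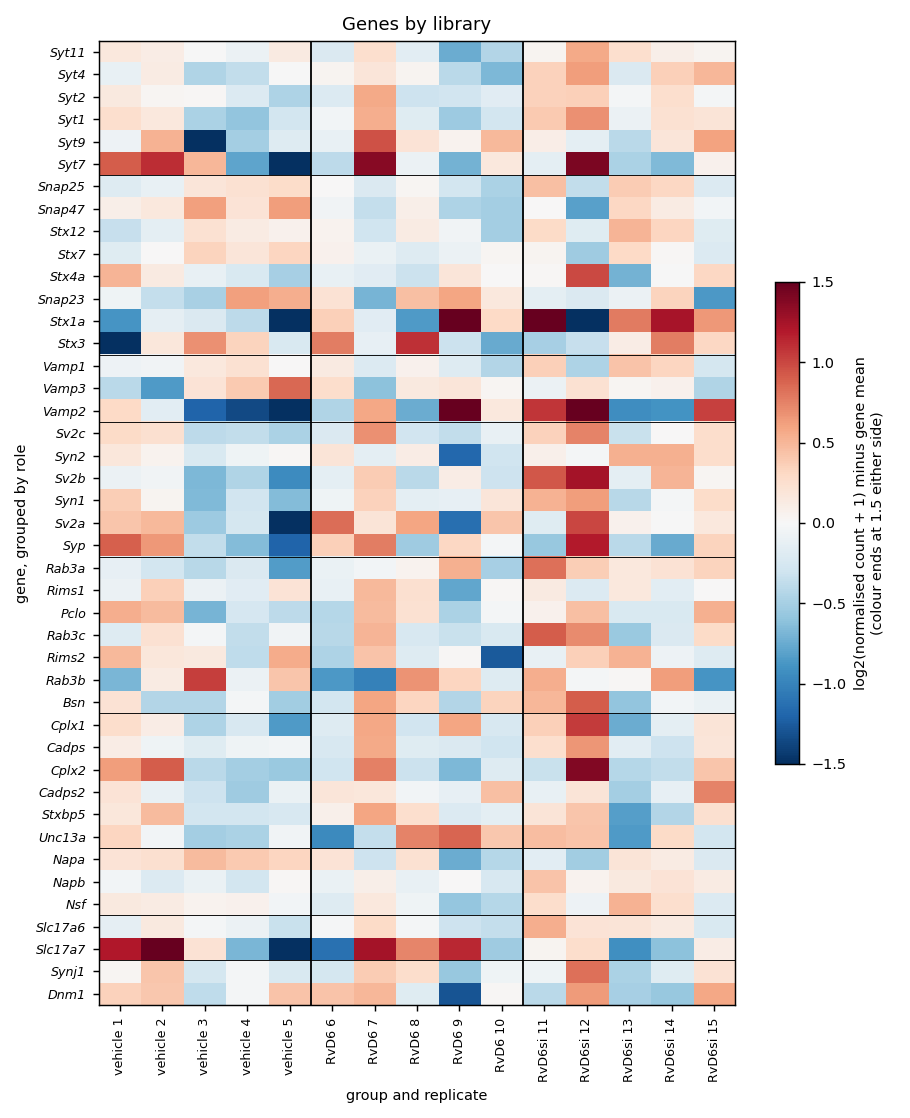
Log2 normalised count (plus 1) of the 43 tested genes minus the mean of each gene, in the 15 libraries (columns, separated by group); red is above and blue below the mean of the gene, with the colour ending at 1.5. The columns of RvD6 replicate 7 and RvD6si replicate 12 are red for most synaptotagmins, vesicle membrane and priming genes, where 24 and 21 genes had the highest value of their group.

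Summed over the 44 genes, the normalised count was 63030 ± 549 (SD, n = 5) in vehicle, 56400 ± 7432 in RvD6 and 68210 ± 5012 in RvD6si. The vehicle sums lay within 62470 and 63720, the RvD6 sums between 48180 and 65280 and the RvD6si sums between 60020 and 73590, so that the groups overlapped. As a share of all counts the genes took 0.835 to 0.878% in vehicle, 0.662 to 0.902% in RvD6 and 0.895 to 1.05% in RvD6si, where the RvD6si libraries were all above the vehicle libraries. The same separation was seen for the other genes of the vesicle cycle (at most 0.939% in vehicle and at least 0.964% in RvD6si). The 2 lowest RvD6 sums were those of replicates 9 and 10, which also had the lowest sums of sensory neuron markers, 59850 and 69980.

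**Figure D5:**
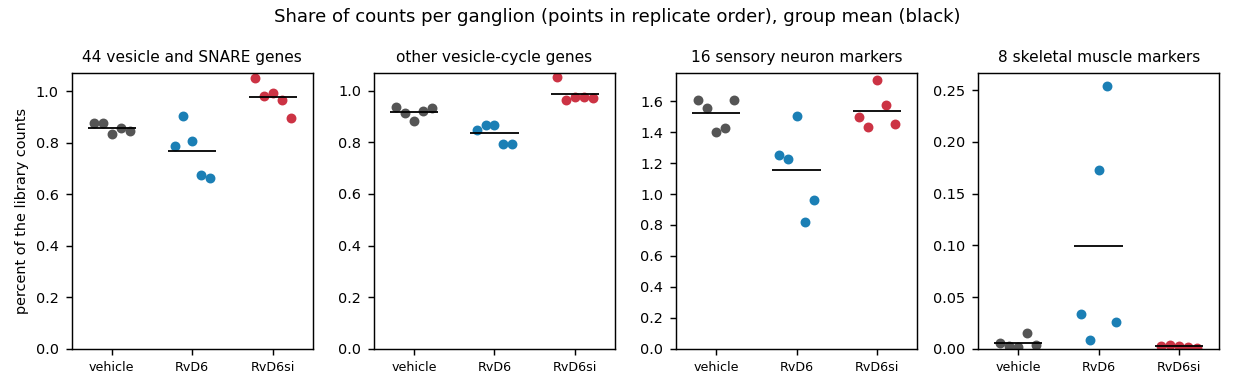
Percent of all counts of a library taken by the 44 genes, by the other genes of the vesicle cycle, by 16 sensory neuron markers and by 8 skeletal muscle markers (points in replicate order, black line for the group mean; each panel has its own axis from 0). The 5 RvD6si libraries lie above the 5 vehicle libraries in the first panel and in the second, and RvD6 replicates 8 and 9 stand out in the last.

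A wider list of 103 genes of the same cycle, of which 102 were in the table and 91 were tested, gave the surroundings. For RvD6si against vehicle edgeR called 2 of the 91 higher, where 0.525% of all genes were, and 0 lower, where 0.145% were. At an unadjusted p below 0.05, 15 were higher (16.5%, beside 8.69% of all genes) and 5 lower (5.49%, beside 7.3%), and the median difference was 0.21. For RvD6 against vehicle 0 were called, with 8 higher (8.79%, beside 7.63% of all genes) and 11 lower (12.1%, beside 5.99%) at an unadjusted p below 0.05 and a median of 0.07. For RvD6si against RvD6 0 were called, with 8 higher (8.79%, beside 4.18%) and 0 lower (beside 4.64%) and a median of 0.14.

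Scamp1, a carrier membrane protein of recycling vesicles, had 628, 647, 522, 757 and 406 in vehicle, 621, 788, 611, 1360 and 759 in RvD6, and 2171, 1122, 1103, 1380 and 1130 in RvD6si, with all RvD6si samples above all vehicle samples. The log2 difference between RvD6si and vehicle was 1.22 (SE 0.24, edgeR adjusted p = 0.0312). Dnajc5, the cysteine string protein that chaperones Snap25 on vesicles, had 1279, 1166, 853, 904 and 704 in vehicle, 1101, 1126, 1013, 1327 and 1089 in RvD6, and 2279, 1970, 1344, 1411 and 1474 in RvD6si, again without overlap between RvD6si and vehicle, or between RvD6si and RvD6. Its log2 difference from vehicle was 0.78 (SE 0.18, edgeR adjusted p = 0.0473). Over the 15 fits that left out 1 library, the Scamp1 call was kept in 8 and the Dnajc5 call in 1 (without RvD6 replicate 9), and the highest edgeR adjusted p was 0.102 for Scamp1 and 0.152 for Dnajc5, both without RvD6si replicate 11.

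Stx8, an endosomal syntaxin, was lower in all RvD6si samples (221 to 273) than in all vehicle samples (336 to 395), a log2 difference of -0.62 (edgeR adjusted p = 0.0640). For RvD6 against vehicle the smallest p-values of the wider list were those of Vti1b, an endosomal SNARE (-0.49, edgeR adjusted p = 0.129, DESeq2 adjusted p = 0.0107), Stx16, a syntaxin of the trans-Golgi network (0.73, edgeR adjusted p = 0.174, DESeq2 adjusted p = 0.0329), and Stxbp3, which binds plasma membrane syntaxins (1.00, edgeR adjusted p = 0.186). With RvD6si these 3 genes stood at -0.39, 0.70 and 0.84 relative to the same vehicle samples. Between the lipids the smallest were those of Dnajc5 (0.59, edgeR adjusted p = 0.260), Scamp1 (0.75, edgeR adjusted p = 0.309) and Syt3 (0.49, edgeR adjusted p = 0.393), a synaptotagmin with high affinity for calcium.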

How the data were processed

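The right TG of 15 mice were profiled by an adapted Smart-seq2 protocol from 1 ng of RNA, primed with oligo-dT and without strand information. The authors aligned the reads to GRCm38 with Rsubread and counted them on the exons of GENCODE M22 genes with featureCounts (Subread 1.6.5 in the submitters' processing notes, 1.5.0-p1 in the file header). The deposited values are raw counts, with the exonic length of each gene. Groups came from the sample titles. The 44 genes and the other lists were chosen with earlier results of these data known.

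Symbols and positions came from GENCODE M21 on the same genome (99.7% of rows named). Counts were tested with edgeR 4.0.16 in R 4.3.3 (TMM, filterByExpr with a minimum count of 10 and a minimum total of 15, quasi-likelihood F test, all 15 samples and 3 groups in 1 fit), which kept 16567 genes, and p-values were adjusted by Benjamini-Hochberg over all of them. For normalised counts, each library was scaled by its DESeq2 1.42.0 size factor (0.615 to 1.39). SE and 95% intervals came from the same fit. Fold changes are on the log2 scale. The named genes are any called gene, the 6 members with the smallest p in each contrast, the highest and lowest per kb of each role, the glutamate transporters, and for the wider list called genes and the 3 smallest p. Syt1, Snap25, Vamp1, Sv2c, Stx7, Rims1 and further members given by level were named after their values were seen.

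Alternatives were DESeq2, 2-group fits, RLE normalization, other filters (none, or a mean count of at least 50), removal of the trend on gene length (lowess, span 0.3), thinning to 4125962 counts and leaving out each sample. The GC trend removal and the joint omission of RvD6 replicates 8 and 9 were chosen after seeing the data. Within a group, the counts of any pair of samples differed well beyond sampling noise (chi-square divided by its degrees of freedom 11.3 to 49.2), so none was counted as a copy. The p-values measure the spread between these samples, in which differences between mice and between library preparations are not separated. The steps were tested on simulated data. Further tools were Python 3.11.15, pandas 2.3.3 and SciPy 1.17.1. Promoter sequences came from RefSeq (GRCm38.p6). 6 members had no promoter window and protein sequences were not used here.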

Additional observations from a re-analysis of the deposited data

Results flagged for a closer look

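In 36 groups of 5 samples (the 3 treatment groups for 11 named genes and for the share of counts), 3 single samples lay far from the rest of their group, with a gap over range above the critical value of 0.71. Chance would flag about 1 in 20 groups that are independent, normally spread and not chosen by their values. The 11 genes were named for small p-values in these same samples, so that rate does not apply directly. Stx1a stood at 83.1 normalised counts in RvD6 replicate 9, where the next sample had 30.5. Vamp2 stood at 309 in the same library, where the next had 85.6. Rab3a stood at 1551 in RvD6si replicate 11, where the next had 1130. No gene of the 44 had all RvD6 samples on one side of the vehicle samples and all RvD6si samples on the other (0 genes).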

How the results depend on the processing

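No paired analysis was possible because the labels and methods give no pairing of samples between groups. For RvD6si against vehicle, the count of called members was 0 with edgeR, 3 with DESeq2, 1 with edgeR on the 2 groups, 1 without a filter, 2 with a mean count of at least 50, 1 after thinning, and 0 to 1 with 1 sample left out. The members with an unadjusted p below 0.05 were 9, and 5 to 13 with 1 sample left out. The called genes of the wider list were 2, and 16 with DESeq2, 1 with the 2 groups, 4 with a mean count of at least 50, 1 with the length trend removed, 1 without RvD6 replicates 8 and 9, and 0 to 2 with 1 sample left out. For RvD6 against vehicle, the members with an unadjusted p below 0.05 were 3, and 5 with DESeq2, 9 with the length trend removed, 5 with the GC trend removed and 2 to 7 with 1 sample left out, and the wider list had 2 called genes with DESeq2 in place of 0. For RvD6si against RvD6, the members with an unadjusted p below 0.05 were 6, and 3 to 12 with 1 sample left out. The vehicle mean of the summed normalised count was 64770 with TMM in place of 63030. Shares over all genes were counted for the main fit and for the DESeq2 calls only, so the other counts cannot be set against the whole table. The cause of these shifts was not tested. The stricter filter changes the genes fitted as well as the number adjusted over. The median log2 difference of the members ran from 0.06 to 0.29 for RvD6si against vehicle, from -0.11 to 0.06 for RvD6 against vehicle and from 0.09 to 0.26 for RvD6si against RvD6. Of 645 values of 27 named gene differences under an alternative, 607 kept direction and side of the threshold, 24 lost a call, 14 gained one and 0 reversed. Scamp1 and Dnajc5, for RvD6si against vehicle, were the only ones called in the main fit. They lost the call in 7 and 17 of 24 alternatives each. For the rest, a kept side means that a gene that was not called stayed so. With 5 samples a group the smallest exact permutation p is 0.00794. Slc17a8, with at most 24 reads in a library, did not pass the filter on low counts at this depth.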
